A study of Mus musculus with 35 samples.

Results

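Transcripts of 10 S100 calcium-binding proteins were followed across all 35 libraries of a study of mouse colon tumour organoids, out of 54354 genes in the table. The members were chosen by gene symbol: S100a1, S100a4, S100a6, S100a8, S100a9, S100a10, S100a11, S100a13, S100a14 and S100a16. The organoids, self-organised epithelial cultures grown in vitro, came from colon tumour and carried the genotype labelled AKP in every group, controls included. They were given palmitic acid, a saturated fatty acid from which cells make ceramides, as batch 1 (3 libraries) or batch 2 (2), against a single control group that the labels assign to neither batch (3). In a separate experiment they were given carmofur, which inhibits ceramidases, the enzymes that break ceramides down (15 libraries), against 12 controls of its own. Each treatment was compared with its own controls. Whether a change follows from fatty acid or ceramide supply, or from another action of the treatment, was not tested. No source used here gives doses, exposure times or the number of organoid lines, or says whether the libraries within a group are separate cultures, so p-values measure the spread between libraries, which may be technical.

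S100 proteins are small proteins that bind calcium through a pair of EF-hand loops and mostly work as dimers. Calcium opens a surface on the dimer that grips other proteins, among them annexins, which attach to membranes, and myosin. Some members are also released from cells and act as danger signals through receptors such as RAGE, encoded by Ager, and TLR4. In the gut, S100A8 and S100A9 together form calprotectin, which is abundant in neutrophils and is measured in stool as a sign of inflammation.

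The 10 genes lie on mouse chromosome 3 in mm10. S100a1, S100a13, S100a14, S100a16, S100a4, S100a6, S100a8 and S100a9 stand within 184.7 kb, and S100a11 and S100a10 stand together 2.82 Mb further on. S100a1, at chr3:90511034-90514392 on the minus strand, and S100a13, at chr3:90514435-90524581 on the plus strand, face away from each other, and their annotated starts are 43 bases apart in GENCODE M21. Promoter windows of 300 bases, from 250 before to 50 after the start of the gene, were given in RefSeq (GRCm38.p6) for 8 of the 10 members, and S100a10 and S100a14 had none. The windows of S100a1 (chr3:90514281-90514580, minus strand) and S100a13 (chr3:90514185-90514484, plus strand) are shown because 1 stretch of 204 bases, in capitals, belongs to both, read from opposite strands.
S100a1: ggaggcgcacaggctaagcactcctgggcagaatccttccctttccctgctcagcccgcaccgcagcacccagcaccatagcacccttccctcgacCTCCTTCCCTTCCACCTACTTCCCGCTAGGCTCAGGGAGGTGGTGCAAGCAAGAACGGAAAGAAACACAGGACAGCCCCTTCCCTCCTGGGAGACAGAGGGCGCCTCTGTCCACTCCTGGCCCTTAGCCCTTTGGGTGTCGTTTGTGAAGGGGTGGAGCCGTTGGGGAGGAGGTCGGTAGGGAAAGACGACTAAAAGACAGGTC
S100a13: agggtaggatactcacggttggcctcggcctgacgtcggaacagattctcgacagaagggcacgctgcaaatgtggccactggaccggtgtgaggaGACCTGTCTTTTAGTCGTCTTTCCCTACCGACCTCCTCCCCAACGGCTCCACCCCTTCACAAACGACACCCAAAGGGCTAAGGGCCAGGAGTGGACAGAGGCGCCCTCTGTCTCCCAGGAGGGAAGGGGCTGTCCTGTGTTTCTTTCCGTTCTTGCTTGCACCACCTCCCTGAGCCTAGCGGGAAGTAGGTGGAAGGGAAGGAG

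The windows of S100a4 (chr3:90603520-90603819, plus strand) and S100a11 (chr3:93520246-93520545, plus strand) are shown because in these genes every carmofur library lay above every control. Capitals mark matches to the TATA box TATAAA and to the AP-1 site TGANTCA, searched on both strands.
S100a4: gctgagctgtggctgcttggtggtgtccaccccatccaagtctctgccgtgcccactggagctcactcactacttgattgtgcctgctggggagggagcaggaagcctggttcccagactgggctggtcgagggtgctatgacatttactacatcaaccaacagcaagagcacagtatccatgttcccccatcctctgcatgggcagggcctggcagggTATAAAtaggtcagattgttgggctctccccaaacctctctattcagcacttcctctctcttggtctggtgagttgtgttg
S100a11: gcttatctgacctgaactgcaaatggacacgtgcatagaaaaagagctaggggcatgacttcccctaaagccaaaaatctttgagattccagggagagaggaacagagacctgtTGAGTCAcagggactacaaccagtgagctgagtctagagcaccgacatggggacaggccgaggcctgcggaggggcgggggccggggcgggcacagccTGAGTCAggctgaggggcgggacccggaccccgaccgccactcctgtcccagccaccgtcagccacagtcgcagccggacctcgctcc

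The S100a4 window held 1 TATA box, which starts 31 bases before the gene, and no AP-1 site. The S100a11 window held 2 AP-1 sites, starting 136 and 38 bases before the gene, and no TATA box. Of all 32851 promoter windows of this length, 13.6% held a TATA box and 7.81% an AP-1 site. A TATA box was also matched in the windows of S100a8 and S100a9, and an AP-1 site in 1 of the 2 windows of S100a16. The GC box GGGCGG, held by 35.7% of windows, was matched 3 times in S100a11 and once each in S100a9 and S100a16. The TEAD site GGAATG, held by 14.7% of windows, was matched in none of the members' windows. The S100a1 and S100a13 windows held none of the 4 motifs. These are matches of letters only.

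Library totals, the summed estimated counts per gene, ranged from 2138905 to 2845017 in palmitic acid batch 1, 2406582 to 3742289 in batch 2 and 762888 to 2511723 in their controls, and from 3127275 to 10609563 with carmofur against 1663750 to 8124707 in the carmofur controls. The lowest total was that of palmitic acid control 1. By the library numbers in the labels, the carmofur experiment falls into 3 blocks of 12 numbers, with 6, 6 and 3 carmofur libraries and 3, 3 and 6 controls. The labels do not say what these blocks are. Carmofur control 1 and carmofur 8 and 10 had been marked in an earlier principal component analysis of these libraries. In the first 2 components computed here, carmofur 8 (13.6 and -3.49) and 10 (25.4 and -7.37) lay close to other carmofur libraries of block 2. Control 1 had the highest second component, 21.1. The 3 were left out together as an alternative, in which S100a10 lost its carmofur call, as given below. Of 11 epithelial markers, none was at 0 in all libraries of either carmofur group, and Epcam, an epithelial adhesion protein, averaged 302 ± 72.5 CPM, counts scaled to the size of the library, with carmofur (SD, n = 15) and 319 ± 91.3 CPM in controls (SD, n = 12). Mpo and Elane of neutrophils, Col1a1 of fibroblasts and Trp63 of squamous basal cells had a count of 0 in all 35 libraries. Other markers of these types were expressed, with carmofur means of 348 CPM for Ly6g, 60.7 CPM for Fn1 and 34.0 CPM for Krt13. With carmofur 14 of 19 neutrophil and myeloid, 11 of 13 mesenchymal and 9 of 16 squamous markers averaged under 1 CPM. All CPM are scaled by TMM, which adjusts for RNA composition. In bulk libraries, more cells of a type and more RNA per cell cannot be told apart.

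Levels between members were compared per kb of transcript. S100a6, or calcyclin, was the most abundant member in all 5 groups, at 3865 ± 541 CPM per kb with carmofur and 2791 ± 358 CPM per kb in its controls. Its libraries did not overlap with those of the next member in any group. S100a11 and S100a10 came next, at 2002 ± 333 and 1540 ± 351 CPM per kb with carmofur and 1239 ± 136 and 1191 ± 135 CPM per kb in its controls, and their ranges overlapped in every group. In the palmitic acid experiment S100a10 stood above S100a11, at 1756 ± 105 against 1700 ± 112 CPM per kb in batch 1 (SD, n = 3). S100a14 and S100a1 followed, at 836 ± 180 and 628 ± 214 CPM per kb with carmofur. S100a13, S100a4 and S100a16 then lay together at 134 ± 40.3, 127 ± 43.7 and 111 ± 22.9 CPM per kb with carmofur, with overlapping ranges. In carmofur controls S100a4 was lower than in treated libraries at 23.0 ± 16.5 CPM per kb, below S100a16 at 76.4 ± 24.2 and S100a13 at 71.2 ± 21.9. S100a8 and S100a9 were the lowest in every group. The coding transcripts of S100a14 and S100a16 differ in annotated length from 483 to 1059 and from 422 to 1127 bases, so their places depend on the transcript used.

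**Figure D1:**
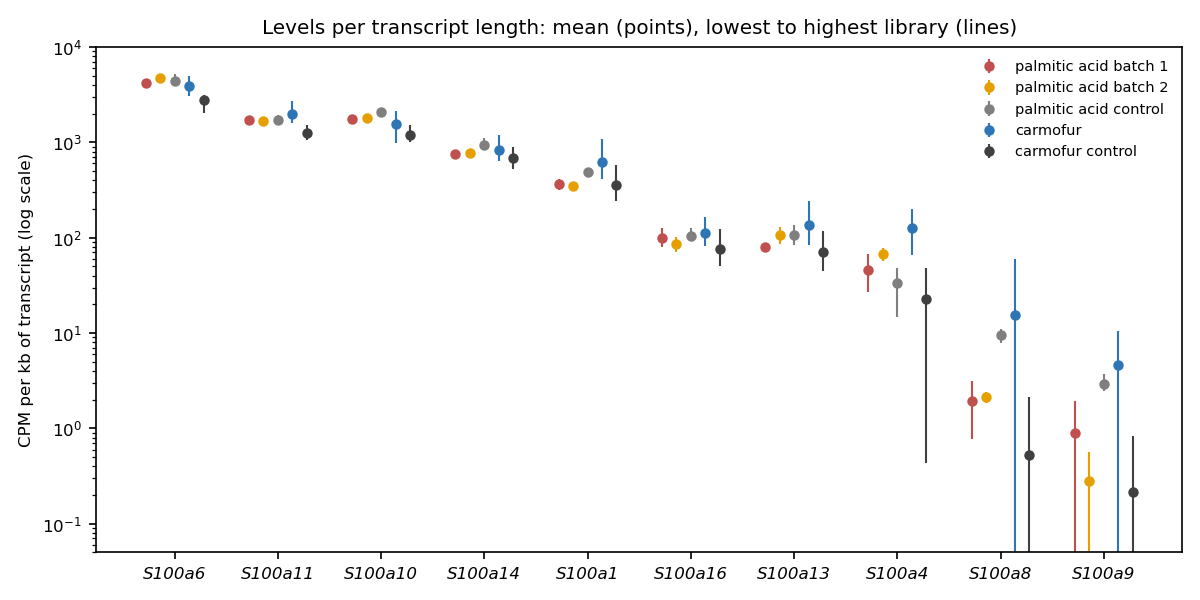
Mean CPM per kb of transcript (log scale) of each member in the 5 groups, with lines from the lowest to the highest library; lines that leave the lower edge reach 0. S100a6 averaged 3865 CPM per kb with carmofur and 2791 CPM per kb in carmofur controls, and S100a9 4.67 and 0.214 CPM per kb.

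S100a6 made up 43.6 ± 3.24% of the members' summed CPM with carmofur and 44.1 ± 2.59% in controls. The members together held 6509 ± 1031 CPM with carmofur, between 5024 and 8487, against 4614 ± 470 CPM in controls, between 3878 and 5179.

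With carmofur, most S100 transcripts rose. Of the 10 members, 8 passed the low-count filter, 7 of them were higher and none lower by edgeR's quasi-likelihood test at an adjusted p under 0.05, where 5.21% of all 9992 genes tested were higher and 3.8% lower, 9.02% in all. The median log2 fold change of the 8 was 0.62, against 0.00 over all genes tested. This fit had no term for the library blocks, over which carmofur libraries and controls are unevenly spread. The 2 that did not enter this test, S100a8 and S100a9, had low counts and are described below. Among the 8 tested S100a4 moved most, followed by S100a13, S100a1 and S100a11.

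**Figure D2:**
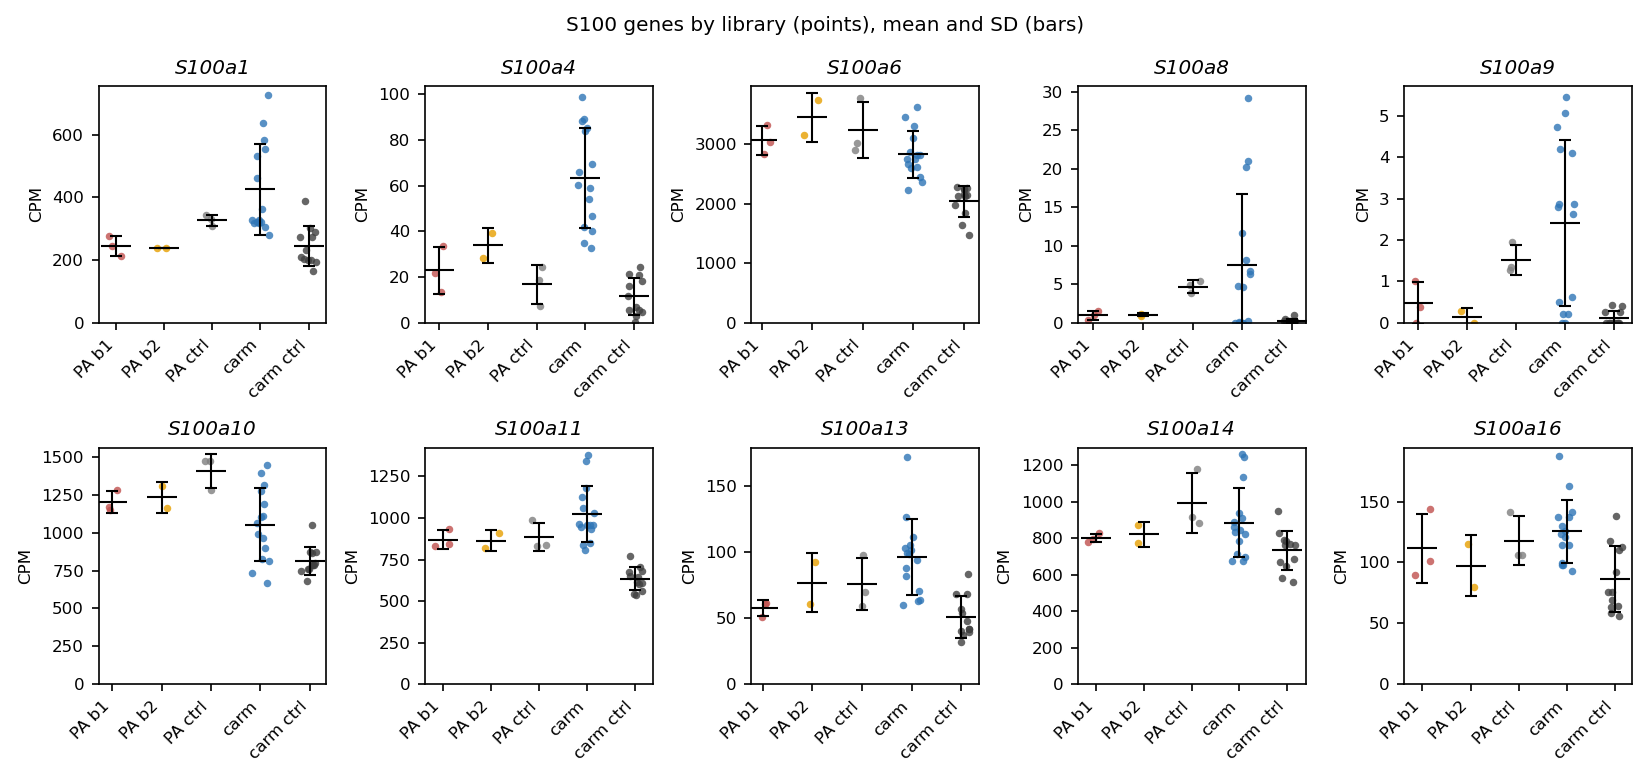
CPM of each member in each library (points) with group mean and SD (bars), for palmitic acid batch 1 (PA b1), batch 2 (PA b2) and their controls (PA ctrl), and for carmofur (carm) and its controls (carm ctrl). For S100a4 and S100a11 all 15 carmofur libraries lie above all 12 controls.

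S100a4, known as metastasin for its link to tumour spread and a binder of non-muscle myosin, ran from 32.7 CPM through a median of 60.4 to 98.7 CPM in the 15 carmofur libraries, against 0.214, 9.32 and 24.2 CPM in the 12 controls. Every treated library lay above every control. Such separation upwards was seen for 0.54% of all genes tested. The mean was 63.4 ± 21.8 CPM with carmofur and 11.5 ± 8.24 CPM in controls, a log2 fold change of 2.45 ± 0.35 (SE; edgeR adjusted p = 1.97e-06). S100a4 is overlapped on the same strand by the predicted gene Gm42674, which had 21 counts over all 35 libraries against 7621 for S100a4.

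S100a4 is also used as a marker of fibroblasts. The 13 mesenchymal markers together held 87.0 CPM with carmofur (41.7 to 142) and 57.9 CPM in controls (26.7 to 98.2), and 11 of them averaged under 1 CPM in both groups. Fn1, which encodes fibronectin, rose to a mean of 60.7 CPM with carmofur (29.5 to 93.0), against 28.1 CPM in controls (11.1 to 49.2), a log2 fold change of 1.11 ± 0.23 (edgeR adjusted p = 0.00078). It was 1 of 2 mesenchymal markers tested. The other, Vim, which encodes vimentin, had 25.7 ± 20.6 CPM with carmofur and 29.2 ± 18.9 CPM in controls and did not pass (edgeR adjusted p = 0.869). Col1a1 was at 0 throughout.

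S100a11, which binds annexin A1, had 809 CPM at the lowest, 960 at the median and 1382 at the highest with carmofur, against 536, 630 and 770 CPM in controls. Again no treated library overlapped with a control. The log2 fold change was 0.69 ± 0.08 (edgeR adjusted p = 6.15e-08), the lowest p among the members.

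S100a6, which binds annexins and the ubiquitin ligase partner Cacybp, had 2226, 2747 and 3627 CPM at the lowest, median and highest with carmofur, against 1475, 2134 and 2273 CPM in controls. All but 1 of the treated libraries, 14 of 15, lay above the highest control. The log2 fold change was 0.47 ± 0.07 (edgeR adjusted p = 1.51e-05).

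S100a10, or p11, has lost calcium binding and forms a fixed complex with annexin A2 at membranes. It had 671, 1069 and 1448 CPM with carmofur at the lowest, median and highest, against 685, 790 and 1050 CPM in controls. The groups overlapped, with 8 of 15 treated libraries above the highest control and 1 below the lowest. Its log2 fold change was 0.37 ± 0.10 (edgeR adjusted p = 0.0098). This call was lost without carmofur 7 to 9 (adjusted p = 0.0549), without carmofur 10 to 12 (0.0768), without controls 10 to 12 (0.101) and without control 1 with carmofur 8 and 10 (0.0545).

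S100a13 takes part in the unconventional release of the growth factor FGF1. It had 59.9, 98.3 and 172 CPM at the lowest, median and highest with carmofur, against 32.2, 44.6 and 83.8 CPM in controls, with 10 of 15 treated libraries above the highest control. The log2 fold change was 0.92 ± 0.17 (edgeR adjusted p = 0.000174). S100a16 had 92.8, 124 and 188 CPM with carmofur, against 56.3, 75.7 and 138 CPM in controls, and 3 of 15 treated libraries stood above the highest control. Its log2 fold change was 0.54 ± 0.15 (edgeR adjusted p = 0.0103). That call was lost without controls 4 to 6 (0.104) and without controls 10 to 12 (0.134).

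S100a14, an epithelial member, did not pass. It had 674, 843 and 1262 CPM with carmofur at the lowest, median and highest, against 558, 761 and 948 CPM in controls. The log2 fold change was 0.27 ± 0.10 (edgeR adjusted p = 0.0786), and 3 of 15 treated libraries exceeded the highest control. S100a1, best known as a regulator of calcium handling in heart muscle, had 281, 329 and 727 CPM with carmofur, against 165, 221 and 389 CPM in controls. Its log2 fold change was 0.80 ± 0.15 (edgeR adjusted p = 0.000156). Of its 15 treated libraries, 6 stood above the highest control, and these were the 6 of library block 2.

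Counts were also summed over each of the 9 sets of 3 consecutive library numbers, so that each set stood as 1 sample. In that fit 3 of 10 members passed, S100a4, S100a11 and S100a13, with edgeR adjusted p of 0.00806, 0.017 and 0.0156, where 2.64% of all 12653 genes passed.

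**Figure D3:**
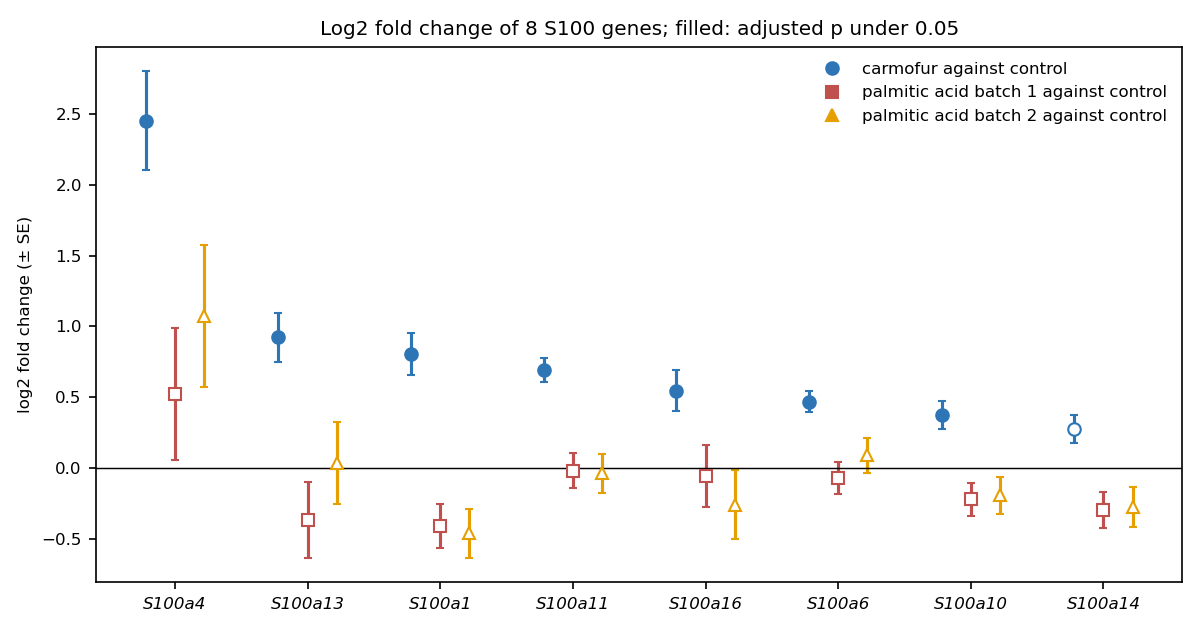
Log2 fold change with its standard error for the 8 members tested in each of 3 comparisons, carmofur against its controls and palmitic acid batch 1 and batch 2 against their shared controls; filled symbols have an adjusted p under 0.05. With carmofur the values run from 0.27 for S100a14 to 2.45 for S100a4 and 7 are filled; no palmitic acid value is.

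The carmofur values were also taken within each library block. S100a1 was picked for its differences between blocks, so its block values are a description with no test. It averaged 326 CPM with carmofur (306 to 364) against 327 CPM in controls (291 to 389) in block 1, a ratio of 0.997. In block 2 it averaged 583 ± 91.8 CPM with carmofur against 213 ± 55.1 CPM in controls, a ratio of 2.74, and in block 3 310 ± 25.6 CPM against 219 ± 30.7 CPM, a ratio of 1.42. Both groups moved between blocks: the controls were highest in block 1 and the carmofur libraries in block 2. S100a13, its divergent neighbour, had ratios of 1.41, 2.18 and 2.02 in blocks 1, 2 and 3.

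Among the other 7 members tested, only S100a14 had a carmofur effect that differed between blocks, with an edgeR adjusted p of 0.0254 (1.78% of all genes passed this test). It averaged 738 ± 83.0 CPM with carmofur against 824 ± 107 CPM in controls in block 1. In block 2 it averaged 1052 ± 186 CPM with carmofur against 656 ± 151 CPM in controls, and in block 3 846 ± 12.4 CPM against 724 ± 61.8 CPM. The call was lost without control 1 and carmofur 8 and 10, where 0 of 7 members passed. S100a10 followed the same order, with ratios of 1.04, 1.63 and 1.25 in blocks 1, 2 and 3, and missed the threshold for that difference (adjusted p = 0.0535). Its level at equal treatment differed between blocks (adjusted p = 0.00434), where 5.02% of all genes did.

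**Figure D4:**
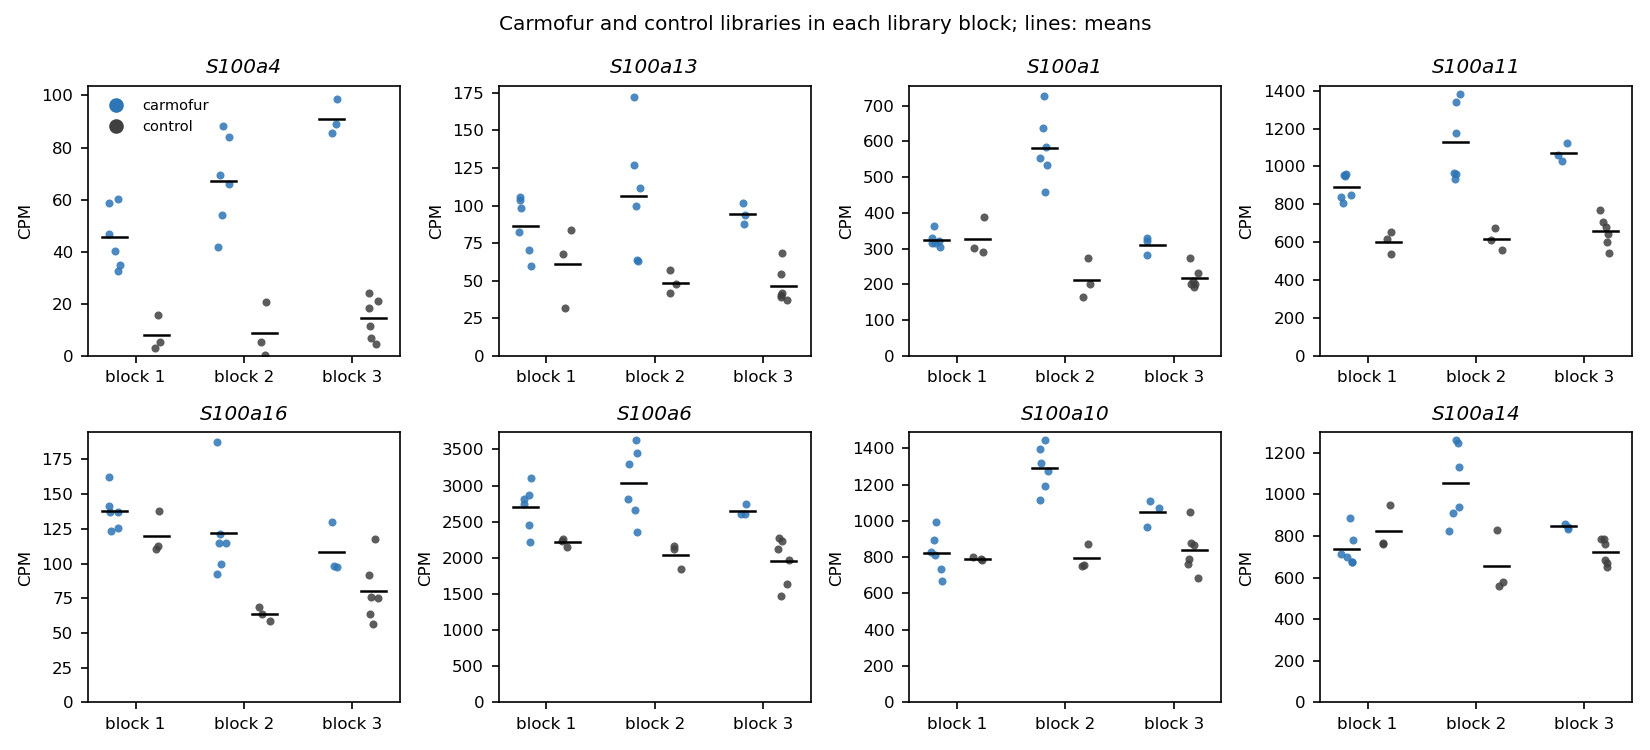
CPM of 8 members in each library of the carmofur experiment, split into the 3 library blocks, with carmofur to the left of control and a line at each mean. S100a4 and S100a11 are separated in every block; S100a1 averages 326 and 327 CPM with carmofur and control in block 1, and 583 and 213 CPM in block 2.

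S100a4 and S100a11 were higher in all 3 blocks. The log2 fold change of S100a4 was 2.41 ± 0.65, 2.92 ± 0.67 and 2.67 ± 0.54 in blocks 1, 2 and 3 (edgeR adjusted p = 0.0441, 0.00332 and 0.00115). That of S100a11 was 0.55 ± 0.13, 0.87 ± 0.13 and 0.71 ± 0.12 (adjusted p = 0.0136, 1.02e-05 and 8.77e-05). S100a1, described above without a test, is left out of what follows. In block 1 these 2 alone of the other members tested passed, where 0.791% of genes were higher. Neither passed there without control 1 and carmofur 8 and 10 (adjusted p = 0.245 for S100a4 and 0.132 for S100a11). All of the other members tested passed in block 2, where 4.74% of genes were higher. In block 3, where 3.72% were, S100a4, S100a6, S100a11 and S100a13 passed.

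S100a8 and S100a9 had low counts except in part of the carmofur libraries. The highest of these low counts were those of S100a8 in palmitic acid controls. They ran from 4 to 10 and averaged 4.68 ± 0.802 CPM, in libraries with lower totals than the carmofur libraries. For S100a8 the 15 carmofur libraries had 816 counts in all, against 16 in the 12 controls. Of the treated libraries 9 had 20 counts or more, 2 had 1 count and 4 had none, and no library had a count from 2 to 19. Controls had at most 4. For S100a9 carmofur libraries had 282 counts in all, against 7 in controls. Again 9 treated libraries had 20 counts or more, 4 had 1 or 2 and 2 had none, while controls had at most 2. Both genes reached 20 counts in 6 of the treated libraries, S100a8 alone in 3, S100a9 alone in 3 and neither in 3. The means were 7.52 ± 9.21 CPM with carmofur against 0.254 ± 0.272 CPM in controls for S100a8, and 2.42 ± 2.01 CPM against 0.111 ± 0.171 CPM for S100a9. A count of 0 allows up to 3 counts, or 0.277 to 0.944 CPM in the carmofur libraries and 0.375 to 1.75 CPM in controls, for counting error only.

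**Figure D5:**
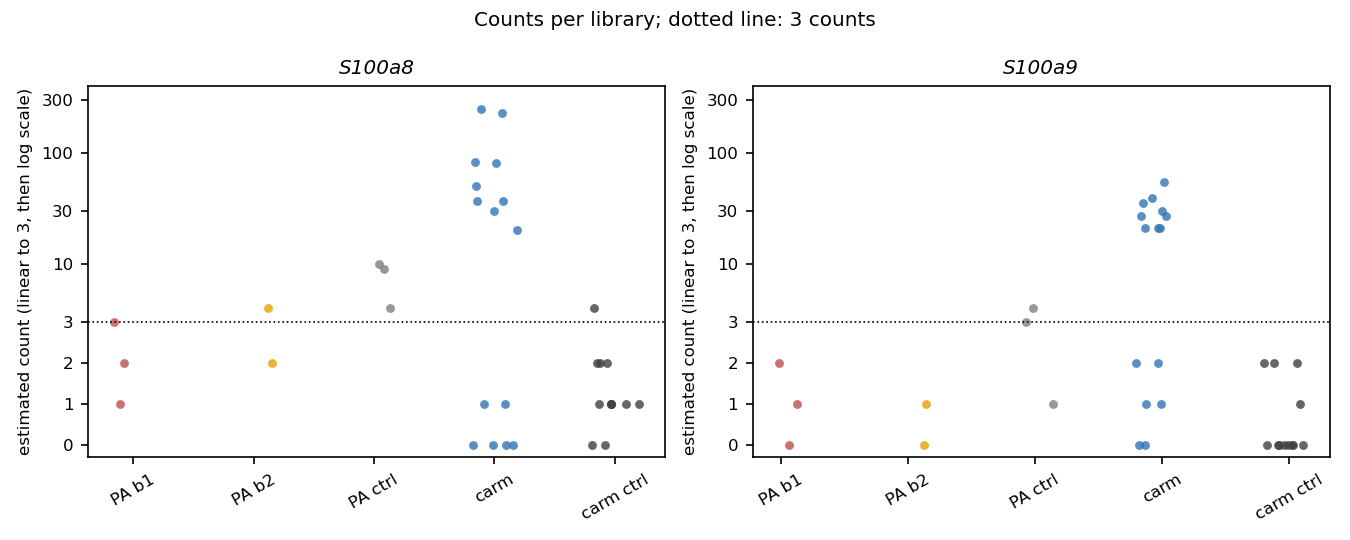
Estimated counts of S100a8 and S100a9 in each library, on a scale that is linear to 3 and logarithmic above, with a dotted line at 3 counts. The carmofur libraries split into counts of 20 or more (9 of 15 for each gene) and counts of 2 or fewer; carmofur controls reach 4 and 2 counts.

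Neither gene passed the low-count filter of the carmofur fit. Without that filter the log2 fold change was 4.79 ± 1.03 for S100a8 and 4.23 ± 1.09 for S100a9. Nearly all their counts lie in the carmofur libraries, so these values are a description with no test. The 19 neutrophil and myeloid markers summed to 631 CPM with carmofur (442 to 927) and 490 CPM in controls (319 to 649). In 14 and 15 of the 19 the mean was under 1 CPM with carmofur and in controls, and 10 and 13 were at 0 in every library of the group. Most of the sum was Ly6g and Cxcr2. Cxcr2, the 1 of 4 tested past the threshold (9.02% of all genes were), had 141 ± 41.2 CPM with carmofur and 63.2 ± 13.3 CPM in controls. Ly6g had 348 ± 74.1 CPM with carmofur and 278 ± 62.0 CPM in controls and did not pass (edgeR adjusted p = 0.0864). Ptprc, which marks all leukocytes, had 1 count in all with carmofur and 28 in controls, all in 1 library, and Lyz2 had 1 and 0. Itgb2, an integrin of leukocytes, had 49 counts with carmofur, all in 1 library (15.4 CPM), and 0 in controls. In blocks 1, 2 and 3 S100a8 averaged 1.89, 14.2 and 5.48 CPM with carmofur, and its controls 0.135, 0.488 and 0.197 CPM. S100a9 averaged 1.64, 2.24 and 4.36 CPM with carmofur in these blocks, and its controls 0.131, 0.229 and 0.0424 CPM.

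Palmitic acid moved no member past the threshold. On simulated data these tests found 15.8% and 12.6% of 2-fold changes in batches 1 and 2, so a 2-fold change can go uncalled. In batch 1 none of 9 members tested passed, where 0.559% of all 9845 genes did, and in batch 2 none of 9, where 0.325% did (edgeR). At an unadjusted p under 0.05 the counts were 2 and 2, where 7.73% and 7.1% of all genes were, and DESeq2 and limma-voom called 0 in either batch. Between batch 2 and batch 1 the count was 0 of 9 with edgeR, DESeq2 and limma-voom and 0 at an unadjusted p under 0.05, where 0.102% of genes passed with edgeR and 2.37% unadjusted. The median log2 fold change of the 9 was -0.22 in batch 1 and -0.19 in batch 2, against 0.01 and -0.01 over all genes. Both batches were set against the same 3 controls, so they are not independent.

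S100a1 had 277, 244 and 213 CPM in batch 1 and 238 and 237 CPM in batch 2, against 331, 308 and 342 CPM in controls. All treated libraries lay below all controls. The log2 fold changes were -0.41 ± 0.16 and -0.46 ± 0.18, with edgeR adjusted p of 0.411 and 0.445. S100a14 had 781, 826 and 797 CPM in batch 1 and 870 and 771 CPM in batch 2, against 1180, 881 and 915 CPM in controls. It too lay below all controls, by -0.30 ± 0.13 and -0.28 ± 0.14 (adjusted p = 0.515 and 0.716).

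S100a8 had 2, 1 and 3 counts in batch 1 and 4 and 2 in batch 2, against 4, 9 and 10 in controls. Scaled to CPM, all treated libraries were below all controls, with means of 0.937 ± 0.566 CPM in batch 1 (SD, n = 3) and 1.02 ± 0.194 in batch 2 (n = 2), against 4.68 ± 0.802 CPM in controls (n = 3). S100a9 had 0, 1 and 2 counts in batch 1 and 1 and 0 in batch 2, against 1, 3 and 4 in controls. These counts lie close to the 3 counts that a 0 allows. Ly6g was the 1 neutrophil and myeloid marker of 4 tested past the threshold in batch 1, where 0.559% of all genes passed. It was lower at 383 ± 29.1 CPM, against 574 ± 120 CPM in controls (log2 fold change -0.57 ± 0.14, edgeR adjusted p = 0.0286). Its part in the S100a8 and S100a9 values was not tested. S100a4 had 13.3, 21.6 and 33.7 CPM in batch 1 and 39.2 and 28.4 CPM in batch 2, against 24.2, 18.6 and 7.29 CPM in controls. Only batch 2 stood clear of the controls, and its log2 fold change of 1.07 ± 0.50 did not pass (edgeR adjusted p = 0.645).

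In batch 1, treated and control libraries did not overlap for 4 of 10 members, all lower, where 6.26% of genes were lower without overlap. In batch 2 they did not overlap for 4 lower members, where 8.97% of genes were so, and for S100a4, which was higher, where 10.9% were. The 4 lower members were S100a1, S100a8, S100a9 and S100a14 in both batches. S100a8 and S100a9 rest on at most 10 counts per library. S100a8 passed the low-count filter of the palmitic acid fit only through its controls, where it was higher. Its lower treated values are therefore no support for a palmitic acid effect. S100a9 did not pass the low-count filter and is not among the genes of these shares, so the counts and shares are not fully alike. The other 5 members overlapped with their controls in both batches. S100a6 averaged 3060 ± 239 CPM in batch 1 and 3446 ± 410 CPM in batch 2, against 3233 ± 470 CPM in controls. S100a11 averaged 869 ± 57.3 CPM and 863 ± 62.2 CPM, against 885 ± 86.9 CPM in controls. S100a10 averaged 1203 ± 72.0 CPM and 1236 ± 103 CPM, against 1411 ± 111 CPM in controls. S100a13 had 50.6, 60.7 and 61.5 CPM in batch 1 and 61.0 and 92.8 CPM in batch 2, against 98.1, 70.2 and 59.3 CPM in controls. S100a16 averaged 111 ± 28.4 CPM and 97.2 ± 25.2 CPM, against 118 ± 20.3 CPM in controls.

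The carmofur effect was set against each palmitic acid effect in a fit of all 35 libraries, in which all 10 members were tested. Against batch 1 only S100a11 passed, higher by 0.72 ± 0.18 on the log2 scale (edgeR adjusted p = 0.0371), where 0.69% of 14052 genes passed and 0.548% were higher. That call was lost when any 1 palmitic acid library was left out, with adjusted p from 0.0532 to 0.265. Against batch 2 none of 10 passed with edgeR, where 0.0854% of genes did. At an unadjusted p under 0.05 the count was 9, where 4.78% of genes were, and with limma-voom it was 3, where 1% of genes passed. The 9 include S100a8 and S100a9, which the filter of the carmofur fit had removed and whose higher counts lie in part of the carmofur libraries. Their part in the 9 is therefore no support for a carmofur effect.

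Other S100 genes, partners and receptors were counted in lists. With carmofur, 4 of 8 other S100 genes were tested, and S100a7a, a relative of human psoriasin that lies between S100a6 and S100a8, rose. It had 70.4 ± 64.6 CPM with carmofur, between 14.6 and 222, against 8.23 ± 6.54 CPM in controls, between 1.16 and 21.7. Its log2 fold change was 3.11 ± 0.50 (edgeR adjusted p = 3.99e-05). It was the 1 of 4 past the threshold, where 9.02% of all genes were. The list of 4 had a median log2 fold change of 1.18.

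Of the S100 partners and targets, 5 of 19 tested rose with carmofur and 1 fell, where 5.21% of all genes rose and 3.8% fell. Their median log2 fold change was 0.18. Anxa2, the partner of S100a10, rose to 2818 ± 397 CPM with carmofur, against 2073 ± 201 CPM in controls, a log2 fold change of 0.44 ± 0.07 (edgeR adjusted p = 1.02e-05). Anxa5 and Anxa6, other annexins, rose by 0.51 ± 0.09 and 0.71 ± 0.14. Ahnak, a giant scaffold bound by the complex of S100a10 and annexin A2, rose by 0.59 ± 0.16 (adjusted p = 0.0122). Plat, the tissue plasminogen activator that the same complex binds, rose by 1.45 ± 0.30 to 61.6 ± 34.6 CPM with carmofur, against 22.7 ± 12.8 CPM in controls. Fkbp4, a co-chaperone, fell by 0.50 on the log2 scale. Anxa1, the partner of S100a11, had 2967 ± 543 CPM with carmofur and 2579 ± 457 CPM in controls and did not pass (0.20 ± 0.09, adjusted p = 0.184).

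With palmitic acid Ahnak was the 1 partner of 20 tested past the threshold in each batch, and it was lower. Of all genes, 0.559% passed in batch 1 and 0.325% in batch 2. It averaged 145 ± 4.48 CPM in batch 1 and 145 ± 17.6 CPM in batch 2, against 267 ± 31.5 CPM in controls. The log2 fold changes were -0.87 ± 0.17 and -0.88 ± 0.20 (edgeR adjusted p = 0.00142 and 0.00955). Anxa2 had log2 fold changes of -0.12 ± 0.11 and -0.14 ± 0.12 and Anxa1 of -0.13 ± 0.11 and 0.10 ± 0.12, none past the threshold.

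Among S100 receptors and the danger-signal pathway, 2 of 14 tested rose with carmofur and 1 fell, where 5.21% of all genes rose and 3.8% fell. Their median log2 fold change was 0.11. Irak1, a kinase downstream of toll-like receptors, rose to 765 ± 187 CPM with carmofur, against 384 ± 68.4 CPM in controls, a log2 fold change of 0.999 ± 0.113 (edgeR adjusted p = 2.70e-08). Cxcr2, a chemokine receptor also counted among the neutrophil markers, rose to 141 ± 41.2 CPM with carmofur, against 63.2 ± 13.3 CPM in controls (1.16 ± 0.15, adjusted p = 3.80e-07). Bsg, a cell-surface receptor reported to bind S100A9, fell to 126 ± 47.9 CPM with carmofur, against 183 ± 40.2 CPM in controls (-0.53 ± 0.17, adjusted p = 0.0453). The classical receptors were scarce. Ager had a count of 0 in all 35 libraries, and Tlr4 averaged 12.6 ± 7.53 CPM with carmofur and 12.2 ± 9.42 CPM in controls (0.04 ± 0.55, adjusted p = 0.985). With palmitic acid 0 of 14 passed in each batch, where 0.559% of all genes did in batch 1 and 0.325% in batch 2 (edgeR).

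Among 31 other EF-hand calcium sensors tested with carmofur 1 rose and 1 fell, a share near the 9.02% of all genes that passed. Their median log2 fold change was 0.04. Myl6, a myosin light chain, rose by 0.30 ± 0.07, and Cetn3, a centrin of the centrosome, fell to 600 ± 49.9 CPM with carmofur, against 881 ± 101 CPM in controls (-0.56 ± 0.07, adjusted p = 5.03e-08). In palmitic acid batch 1, 1 of 31 tested rose and 1 fell, where 0.559% of all genes passed. The one that fell was Calml4, which encodes a protein of the brush border, by 0.62 on the log2 scale (edgeR adjusted p = 0.0319). In batch 2 none of 31 passed, where 0.325% of all genes did (edgeR).

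Of 10 epithelial markers tested with carmofur 1 passed, a share near that of all genes. It was Krt20, a keratin of mature colon epithelium, which rose by 2.82 ± 0.51 to 29.8 ± 9.88 CPM with carmofur, against 4.15 ± 4.07 CPM in controls. Of 7 squamous markers tested Krt14 and Krt13 rose by 2.84 ± 0.56 and 3.07 ± 0.63, where 5.21% of all genes rose. The 16 squamous markers summed to 226 CPM with carmofur (129 to 372) and 112 CPM in controls (36.0 to 235). The part of these cell types in the S100 values was not tested.

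For each member past the threshold with carmofur, the tested genes most like it were found over the 27 libraries by Pearson's r of log2 CPM, after the mean of each group within each library block was subtracted. S100a11 was most like S100a6 (r = 0.825) and Anxa2 (0.797), followed by mt-Cytb (0.783). S100a6 itself was most like the predicted genes Gm17494 (0.849) and Gm37214 (0.845) and Ccz1 (0.833). S100a4 was most like Kctd20 (0.820), Arf1 (0.788) and Hint1 (0.759), and S100a10 most like Rplp0 (0.810), Dffb (0.794) and Gm48789 (0.787). S100a16 was most like mt-Nd2 (0.797), Rps21 (0.781) and Rps19-ps3 (0.765), S100a13 like Cpne1 (0.775), Fgd4 (0.766) and Gm15950 (0.757), and S100a1 like Tmem209 (0.759), Apoc2 (0.708) and Ahctf1 (0.693). These are the highest of nearly 9992 values each over libraries that share depth and processing, and are given as a description. Differences between sets of consecutive library numbers within a block were not subtracted. S100a11 had 935 to 966 CPM in carmofur 7 to 9 and 1179 to 1382 CPM in carmofur 10 to 12. S100a6 had 2355 to 2810 CPM and 3305 to 3627 CPM in these libraries. The part of such shifts in r was not tested.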

How the data were processed

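Poly(A)-selected RNA of colon tumour organoids was measured in 35 strand-specific libraries, per the labels' protocols. The authors deposited estimated counts per gene as whole numbers, for which the submitters' processing notes name Salmon 1.3.0 and mm10. No source used here gives the annotation or the step to genes. The 1243 unnamed genes held 0.0216% of counts. Counts were tested with edgeR 4.0.16 in R 4.3.3 (TMM scaling, filterByExpr, robust quasi-likelihood F test, Benjamini-Hochberg over all genes tested, threshold 0.05). The 8 palmitic acid libraries, the 27 carmofur libraries and all 35 were fitted separately, and printed CPM are TMM-scaled over all 35. Errors are SD of CPM and SE of log2 fold changes. The alternatives used DESeq2 1.42.0, limma 3.58.1 and other scalings, filters and library sets. The tests were checked on data simulated with 200 changed genes. They found 15.8% of 2-fold and 49.5% of 4-fold changes in palmitic acid batch 1, and 12.6% and 45.7% in batch 2. With carmofur they found 38.7% and 69.5%. Among 178 within-group pairs no 2 libraries were identical, and chi-square per degree of freedom was at least 7.40.

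The members and lists were chosen with earlier results of these data known. All 10 members were named, with up to 6 past the threshold of every other list, and Anxa1, Anxa2, Ager and Tlr4. A gene that this rule names is not reported here. Positions are from GENCODE M21 and promoters from RefSeq (GRCm38.p6). Estimated counts can split reads between related genes such as S100a11 and its pseudogene, which had 24 counts in all.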

Additional observations from a re-analysis of the deposited data

Results flagged for a closer look

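Among 6 carmofur libraries of block 2, S100a16 had 188 CPM in carmofur 12, far above the other 5, which ran from 92.8 to 121 CPM. Among the 6 controls of block 3, S100a9 had 0.255 CPM in control 7 and a count of 0 in the other 5. These were 2 of 30 groups of libraries looked at, and such a rule marks about 1 in 20 by chance. The carmofur effect on S100a11 exceeded its palmitic acid batch 1 effect by 0.72 on the log2 scale (edgeR), and the difference lost its call whenever 1 palmitic acid library was left out. The carmofur effect on S100a14 differed between the library blocks (edgeR adjusted p = 0.0254).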

How the results depend on the processing

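In the carmofur comparison, 7 of 8 members tested passed, and leaving out each library set in turn gave 6 to 10, while summed library sets gave 3, DESeq2 gave 9 and limma-voom 6. Counts of 9 and 10 can be reached only with S100a8 or S100a9, which the filter of the main fit removed, and are no support for these 2. The genes past the threshold numbered 901, and 740 to 981 with each set left out, 3541 without a filter, 1384 with DESeq2 and 334 with summed sets. For limma-voom this number is not given here. For palmitic acid batch 1 they numbered 55, and 21 to 72 with each library left out. For batch 2 they numbered 32, and 54 with DESeq2 and 70 with both batches merged. Between batches they numbered 10, and 19 without a filter and 2 to 14 with each library left out. The difference between the carmofur and batch 1 effects gave 97 genes and 1 member. Library size alone or a mean count of at least 10 gave 2 members and no filter 0, with numbers of genes not given here. The difference gave 239 genes and 4 members with limma-voom, and 22 to 78 genes and 0 members with each library left out. Against batch 2 it gave 12 genes and 0 members, and 141 genes and 3 members with limma-voom, and 4 to 12 genes with each library left out. Without carmofur control 1 and carmofur 8 and 10, library block 1 gave 90 genes and 0 members and the difference between blocks 105 genes and 0 members. The cause of these shifts was not tested.

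Small palmitic acid values changed sign. With each library left out, the log2 fold change in batch 1 ran from -0.159 to 0.0649 for S100a6, from -0.0864 to 0.0754 for S100a11 and from -0.295 to 0.0895 for S100a16. In batch 2 it ran from -0.0293 to 0.231 for S100a6, from -0.105 to 0.0611 for S100a11 and from -0.289 to 0.318 for S100a13. With limma-voom S100a11 was 0.00778 in batch 1, and without a filter 0.00758 in batch 2. With batches merged S100a6 was -0.0297 and S100a13 -0.211, and S100a13 was -0.0240 with the replicate block. In carmofur block 1, S100a1 was 0.108 without the 3 libraries. None of these values passed the test.

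The replicate number as a block left 7 carmofur members and 799 genes past the threshold, and 42 and 28 genes with 0 members in palmitic acid batches 1 and 2. Same-numbered libraries showed no shared deviation, with correlations from -0.0194 to 0.0383. With so few libraries in the palmitic acid groups, this cannot exclude that the numbers pair the samples. In the carmofur experiment same-numbered libraries share a library block only for numbers 1 to 3, and carmofur 13 to 15 have no same-numbered control. A pairing by number could therefore hardly be seen there either. Batch 2 with 2 libraries and palmitic acid control 1 with its low total limit what could be seen for low members.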
